A study of Mus with 6 samples.

Results

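Voltage-gated potassium channel genes were taken from an RNA-seq table of mouse basolateral amygdala as the protein-coding genes named Kcna to Kcnh, Kcnq, Kcns or Kcnv with a number, together with the auxiliary genes Kcnab1 to Kcnab3 and Kcnip1 to Kcnip4. The rule found 52 genes among the 54532 of the table, 40 coding for channel-forming or silent subunits and 12 for auxiliary subunits. The groups were 3 libraries from mice labelled CNTNAP4-KO (KO1 to KO3) and 3 from mice labelled wild type (WT1 to WT3), all female. Cntnap4 codes for a contactin-associated adhesion protein found in interneurons. The labels used here give no age, strain, deleted part of the gene or treatment for either group, and leave unsaid whether the libraries of a group are different animals. The p-values rest on the spread between these libraries, which may be technical.

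Voltage-gated potassium channels open when a neuron depolarises, let potassium leave and so bring the membrane back to rest. The Kcna (Shaker) channels sit along axons and set the firing threshold, the Kcnb (Shab) channels on the soma and proximal dendrites carry the slow delayed rectifier, the Kcnc (Shaw) channels let fast-spiking interneurons fire at high rates, and the Kcnd (Shal) channels carry the transient A-type current of dendrites. The Kcnq channels carry the M-current, which restrains repeated firing, and the Kcnh genes code for the ether-a-go-go, erg and elk channels. Kcnf, Kcng, Kcns and Kcnv subunits are silent alone and join Kcnb subunits in mixed channels. Kcnab proteins bind Shaker channels from the cytosol, Kcnip proteins are calcium-binding partners of Shal channels, and Kcne proteins are small membrane subunits that tune other channels.

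The libraries held 15933029 to 17789798 reads, recovered from the FPKM values (read fragments scaled by gene length and library depth, the unit of the table). Cntnap4 itself was at 1.08, 1.19 and 1.28 FPKM in KO, below its 3.53, 3.90 and 2.15 FPKM in WT, and did not pass the test (log2 fold change -0.92, SE 0.18, limma adjusted p = 0.302). Of the 8 basolateral amygdala markers listed, all were detected in every library, but they did not move together. Rspo2 was at 2.39 to 4.12 FPKM in KO and 2.03 to 3.73 FPKM in WT, while Lypd1 was at 4.65, 4.15 and 4.26 FPKM in KO and 22.4, 19.6 and 3.37 FPKM in WT. Fezf2 was nominally higher (log2 fold change 1.04) and Cdh13 nominally lower (-0.38) in KO, by an unadjusted limma p under 0.05. Ppp1r1b, also a striatal gene, was highest in WT3, at 248 FPKM. WT1 stood apart from the other 5 libraries. The interneuron calcium buffer Pvalb was at 5.19 FPKM in WT1, against 32.5 to 57.5 FPKM in KO and 32.6 and 44.3 FPKM in WT2 and WT3. Interneuron markers as a list were mixed there: 3 of the 10 were lowest in WT1, while Sst was highest there, at 433 FPKM. Their sum was 703 to 725 FPKM in KO and 906, 761 and 716 FPKM in WT1, WT2 and WT3, with Sst the largest part in WT1. The deviation of log2(FPKM + 1) from each gene's mean over the libraries averaged -0.15 in WT1 and -0.01 to 0.08 in the others. Its median in WT1 was 0.04. Results are therefore given with and without WT1.

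Of the 52 genes, 42 passed the filter of a mean of at least 1 FPKM over the 6 libraries and were tested. Kcnab2, the most abundant, was at 94.8 ± 8.04 FPKM in KO and 82.3 ± 19.7 FPKM in WT (SD, n = 3 each, as for all values given with ±), and the next by mean level were Kcnh3, Kcnip2, Kcnf1, Kcnip3 and Kcnc4, at 30.8 to 40.1 FPKM over the 6 libraries. In all, 24 genes averaged 10 FPKM or more. The lowest gene above the filter was Kcng4, with a mean of 1.20 FPKM, and the highest below it was Kcne4, with 0.77 FPKM. Kcng3 averaged 0.55 FPKM. The other 8 genes below the filter were Kcna7, Kcna10, Kcne1, Kcne2, Kcne3, Kcnh8, Kcnq1 and Kcnv2, with means of at most 0.14 FPKM, and Kcne1 had 0 reads in every library. Kcnq1 and Kcne1 together form a slow potassium channel of heart muscle.

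No voltage-gated potassium channel gene passed the limma test over all 13087 genes (0 of 42, smallest adjusted p = 0.302), where 0.00764% of all genes tested passed. At an unadjusted p under 0.05, 12 of the 42 were higher in KO, where 7.05% of all genes tested were, and 4 were lower, where 7.25% were. All KO values lay above all WT values for 13 of the 42, against 11.9% of all genes tested, and below them for 4, against 10.1%. Kcne1l, which is in both lower counts, passed the filter only through the WT libraries, where it was high. The median log2 fold change of the 42 was 0.20, and that of all genes tested was 0.01. With values rescaled to a common FPKM sum per library the genes outside the WT range were 13 above and 1 below, where 14.6% and 6.07% of all genes tested were.

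Without WT1, 10 of the 42 were nominally higher, all of them among the 12, where 4.28% of all genes tested were, and 3 were nominally lower, where 5.17% were. Of the 3, Kcng2 and Kcne1l were among the 4 lower with WT1, while Kcna5 and Kcng1 no longer were and Kcna4 was added. The median log2 fold change of the 42 was 0.13. Kcnip4 and Kcnq3 were no longer nominally higher. The nominally higher count was 6 without KO1, 4 without KO2 and 7 without KO3, where 4.08%, 2.89% and 5.65% of all genes tested were. The nominally lower count was 2 without WT2, where 6.85% of all genes tested were, and 2 without KO1, where 5.74% were. Kcna5 and Kcng1 were the genes lost in both.

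**Figure D1:**
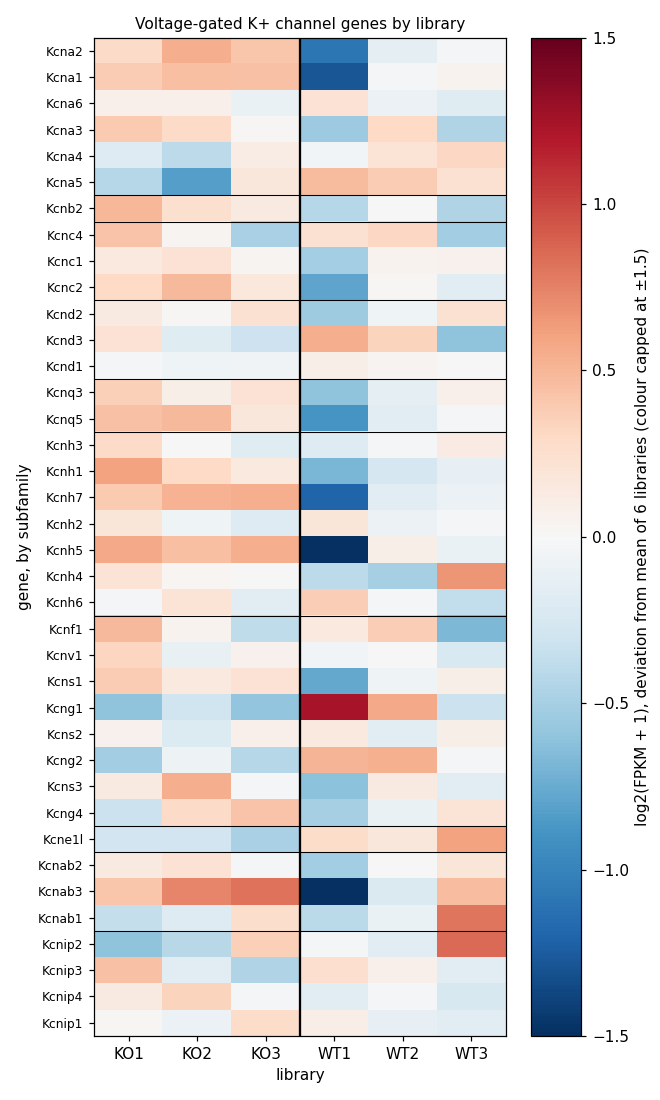
Heat map of 38 genes above the filter (rows, grouped by subfamily) in the 6 libraries (columns, KO left of WT), coloured by the deviation of log2(FPKM + 1) from the gene's mean over the 6 libraries, with the colour capped at 1.5. WT1 holds the lowest value of 18 of the 38 genes shown, and Kcng1 is red in WT1 and WT2.

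WT1 held the lowest value of 21 of the 42 genes (50.0%), against 27.3% of all genes tested. It held the lowest value of 10 of the 12 nominally higher genes, and WT3 that of the other 2. Genes picked as higher in KO tend to be lowest in a WT library, and the like share over all nominally higher genes was not taken. The SD of the log2 values was larger in WT than in KO for 31 of the 42, with medians of 0.18 in KO and 0.37 in WT, and for 63.5% of all genes tested, with medians of 0.13 in KO and 0.17 in WT. All 6 oligodendrocyte markers were lowest in WT1, where they summed to 226.7 FPKM, against 463 to 657 FPKM in KO and 445 and 673 FPKM in WT2 and WT3. Of the 8 excitatory neuron markers 5 were lowest in WT1, and they summed to 1583 to 1985 FPKM in KO and 1343 to 2016 FPKM in WT. None of the markers in these lists was at 0 in any library, and their part in the channel values was not tested. In bulk tissue, fewer cells of a type and less RNA per cell cannot be told apart.

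Among the Shaker genes, Kcna1 and Kcna2, which code for low-threshold axonal subunits that combine in 1 channel, lay above the WT range in all 3 KO libraries. Kcna2 was at 28.5, 34.2 and 31.1 FPKM in KO and 10.4, 20.9 and 22.7 FPKM in WT. Kcna1 was at 17.3, 18.1 and 18.0 FPKM in KO and 4.76, 12.8 and 13.5 FPKM in WT. For both genes the KO libraries lay close together and WT1 lay far below WT2 and WT3. The log2 fold changes were 0.83 (SE 0.27, limma adjusted p = 0.303) for Kcna2 and 0.84 (SE 0.33, limma adjusted p = 0.335) for Kcna1. Without WT1 they were 0.50 and 0.41, with unadjusted limma p of 0.00443 and 0.00382 and an adjusted p of 0.480 for both.

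Kcna5, best known for the ultrarapid current of the atrium, was the Shaker gene on the other side. It was at 1.28, 0.73 and 2.44 FPKM in KO and 3.23, 2.96 and 2.57 FPKM in WT, with the KO libraries below every WT library but KO3 close to WT3 (log2 fold change -0.72, SE 0.24, limma adjusted p = 0.308; unadjusted p = 0.0610 without WT1). Kcna4, an A-type subunit, averaged 3.96 ± 0.88 FPKM in KO and 5.14 ± 0.76 FPKM in WT, and Kcna3, first known from lymphocytes, 6.53 ± 0.97 FPKM in KO and 4.59 ± 1.91 FPKM in WT. Kcna6 averaged 12.9 ± 0.96 FPKM in KO and 12.5 ± 2.02 FPKM in WT, a difference smaller than the spread. These genes lie in groups on the chromosome. Kcna2 stands with Kcna3 and Kcna10 within 159553 bases of chromosome 3 (107036169 to 107195721), and Kcna1 with Kcna5 and Kcna6 within 208124 bases of chromosome 6 (126532551 to 126740674), as the table gives positions. The neighbours Kcna1, Kcna5 and Kcna6 thus had log2 fold changes of 0.84, -0.72 and 0.04.

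Among the Shab genes, Kcnb2, a delayed rectifier subunit, was above the WT range in KO. It was at 3.33, 2.65 and 2.37 FPKM in KO and 1.28, 2.10 and 1.26 FPKM in WT (log2 fold change 0.58, SE 0.17, limma adjusted p = 0.303). Here WT1 and WT3 were equally low, and the change was 0.51 without WT1.

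The Shaw genes differed among themselves. Kcnc2 was at 21.5, 24.6 and 19.3 FPKM in KO and 9.56, 17.5 and 15.2 FPKM in WT (log2 fold change 0.63, SE 0.21, limma adjusted p = 0.305). All 3 KO libraries were above every WT library, and the log2 fold change was 0.39 without WT1. Kcnc1, which marks fast-spiking interneurons, was at 27.7, 29.2 and 25.7 FPKM in KO and 17.2, 25.8 and 26.1 FPKM in WT, where WT2 and WT3 overlapped KO; it was chosen for description after its values were seen. Kcnc4, the inactivating member and the highest of the 4, was at 40.5, 30.7 and 21.0 FPKM in KO and 35.0, 37.2 and 20.5 FPKM in WT, with its lowest values in the libraries numbered 3 of both groups and a log2 fold change of -0.01 (SE 0.29) that took either sign among the alternatives.

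Shal genes showed little difference between the groups. Kcnd2, the main A-type subunit, was at 24.7, 22.6 and 26.3 FPKM in KO and 15.2, 21.3 and 26.5 FPKM in WT (log2 fold change 0.25, SE 0.19, limma adjusted p = 0.554), and 0.04 without WT1. Kcnd3 averaged 8.43 ± 1.86 FPKM in KO and 10.2 ± 4.14 FPKM in WT. Kcnd1 was at 2.29, 2.20 and 2.23 FPKM in KO and 2.57, 2.45 and 2.35 FPKM in WT, so that the groups did not overlap although the log2 fold change was only -0.09 (SE 0.10, limma adjusted p = 0.670). The summed Shal level was 32.6 to 37.5 FPKM in KO and 31.2 to 35.3 FPKM in WT.

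Of the M-current genes, Kcnq5 and Kcnq3 lay above the WT range in every KO library. Kcnq5 was at 19.1, 19.8 and 15.7 FPKM in KO and 7.02, 12.2 and 13.5 FPKM in WT (log2 fold change 0.73, SE 0.23, limma adjusted p = 0.303; 0.46 without WT1). Kcnq3 was at 20.3, 16.6 and 18.4 FPKM in KO and 9.97, 14.1 and 16.5 FPKM in WT. KO2 and WT3 were nearly equal there (log2 fold change 0.44, SE 0.18, limma adjusted p = 0.341; unadjusted p = 0.0868 without WT1).

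The 2 nominally higher genes with the largest ratios of KO to WT, Kcnh5 and Kcnh7, were Kcnh genes. Kcnh5, an ether-a-go-go channel, was at 6.65, 6.03 and 6.51 FPKM in KO and 0.78, 4.46 and 3.81 FPKM in WT (ratio 2.12, or 1.55 without WT1; log2 fold change 1.04, SE 0.39, limma adjusted p = 0.325). Its 59 reads in WT1 were the fewest, against up to 443 in another library. Kcnh7, an erg channel, was at 11.0, 12.2 and 12.4 FPKM in KO and 2.97, 7.15 and 7.64 FPKM in WT (log2 fold change 0.97, SE 0.28, limma adjusted p = 0.303). It had a log2 fold change of 0.61 without WT1 (unadjusted p = 0.000773, adjusted p = 0.480, n = 3 and 2, limma). Kcnh1, the other ether-a-go-go channel, was at 19.8, 15.9 and 14.1 FPKM in KO and 7.52, 10.5 and 11.6 FPKM in WT (log2 fold change 0.70, SE 0.18, limma adjusted p = 0.302; 0.53 without WT1).

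The remaining Kcnh genes overlapped between the groups. Kcnh3, an elk channel of the forebrain and the most abundant channel-forming gene, was at 48.8, 39.5 and 35.0 FPKM in KO and 34.6, 39.1 and 43.6 FPKM in WT (log2 fold change 0.06, SE 0.15, and -0.02 without WT1). Kcnh2, the erg channel that shapes the cardiac action potential, averaged 8.32 ± 1.26 FPKM in KO and 8.61 ± 0.97 FPKM in WT. Kcnh4 averaged 4.66 ± 0.45 FPKM in KO and 4.44 ± 2.62 FPKM in WT, and Kcnh6 1.30 ± 0.30 FPKM in KO and 1.32 ± 0.60 FPKM in WT. Of the 7 tested members of this family 3 were nominally higher and 0 nominally lower, where 7.05% and 7.25% of all genes tested were.

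**Figure D2:**
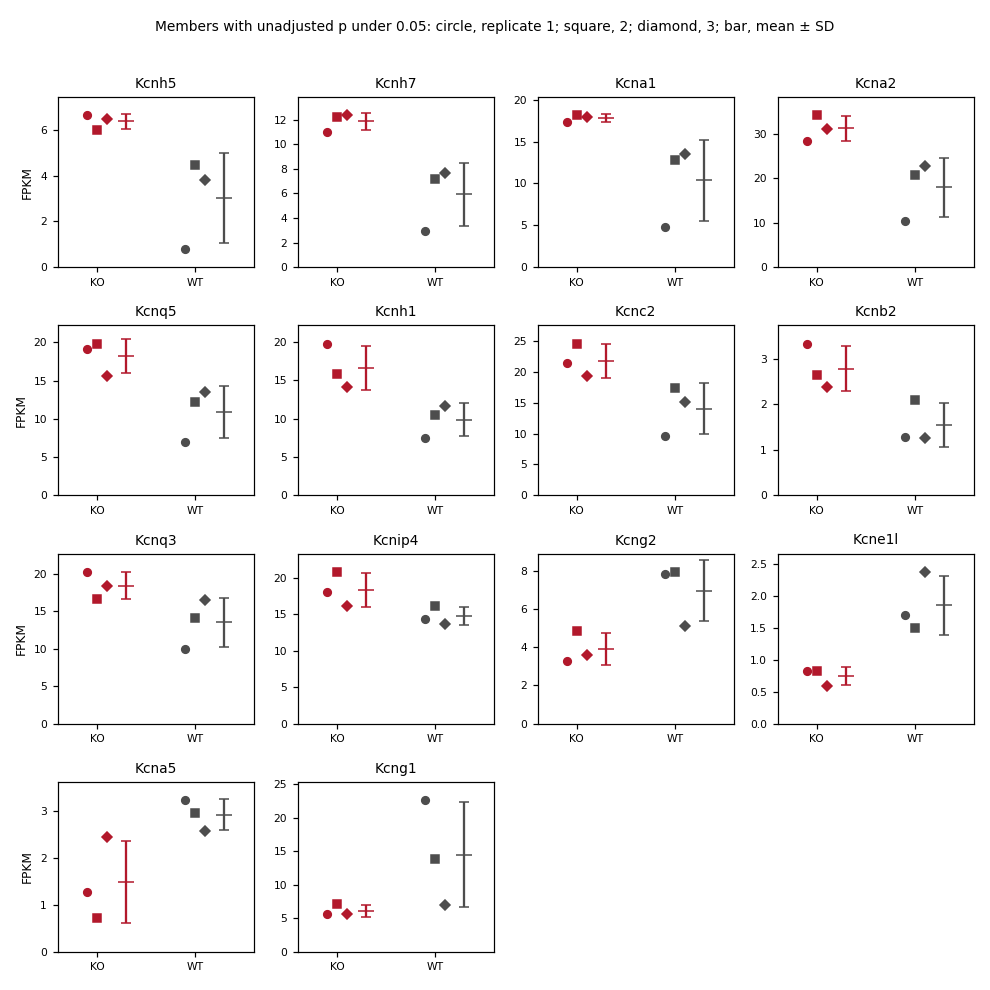
FPKM of 14 genes with an unadjusted limma p under 0.05, KO left of WT, with a circle, square and diamond for replicates 1, 2 and 3 and a bar for the mean ± SD of 3 libraries. For 10 genes the KO points lie above all WT points, so that their lowest point is always a WT point. The circle of WT1 is the lowest of the 6 for 8 of the 10. The last 4 genes shown are lower in KO.

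Of the 8 tested silent subunits, 2 Kcng genes were nominally lower, where 7.25% of all genes tested were. Kcng2 was at 3.28, 4.82 and 3.57 FPKM in KO and 7.80, 7.93 and 5.09 FPKM in WT, with no overlap but KO2 and WT3 close (log2 fold change -0.69, SE 0.19, limma adjusted p = 0.302; -0.61 without WT1). Kcng1 was at 5.59, 7.10 and 5.65 FPKM in KO and 22.6, 13.9 and 6.99 FPKM in WT. Here WT1 was the highest library, WT3 lay within the KO range, and the log2 fold change of -0.99 (SE 0.36, limma adjusted p = 0.318) was -0.62 without WT1. Kcng1 was no longer nominally lower when WT1, WT2, KO1 or KO3 was left out. Kcns1 was above the WT range at 14.3, 12.0 and 12.6 FPKM in KO and 5.87, 10.2 and 11.5 FPKM in WT (log2 fold change 0.50, SE 0.22, limma adjusted p = 0.363). It was not nominally higher (unadjusted p = 0.0587).

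Kcnf1, the highest silent subunit, was at 45.8, 33.6 and 24.7 FPKM in KO and 35.9, 42.3 and 19.9 FPKM in WT, and was lowest in the libraries numbered 3 of each group (log2 fold change 0.11, SE 0.31, taking either sign among the alternatives). Kcnv1 averaged 28.2 ± 4.46 FPKM in KO and 24.7 ± 2.26 FPKM in WT, and Kcns2 6.42 ± 0.77 FPKM in KO and 6.69 ± 0.87 FPKM in WT. Kcns3 averaged 2.43 ± 0.73 FPKM in KO and 1.56 ± 0.65 FPKM in WT, and Kcng4 1.41 ± 0.61 FPKM in KO and 0.99 ± 0.47 FPKM in WT. Summed over the silent subunits, the level was 96.7 ± 13.9 FPKM in KO and 97.8 ± 18.9 FPKM in WT.

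Among the auxiliary genes, the Kcnab and Kcnip families each had fold changes of either sign. Kcnab3, a beta subunit of Shaker channels, had the widest range of the 42 genes on the log2(FPKM + 1) scale and was chosen for description after its values were seen. It was at 26.4, 33.2 and 35.1 FPKM in KO and 3.49, 16.7 and 27.4 FPKM in WT, with WT3 above KO1 and WT1 resting on 187 reads (log2 fold change 1.30, SE 0.61, limma adjusted p = 0.373). Without WT1 the log2 fold change was 0.53 (unadjusted p = 0.0552). With the replicate number as a block, a pairing that no label gives, the unadjusted p was 0.0229 (limma adjusted p = 0.244). An antisense gene, Kcnab3os, lies across it and had 0 to 4 reads per library. Kcnab2 was at 96.2, 102 and 86.2 FPKM in KO and 60.6, 87.6 and 98.9 FPKM in WT (log2 fold change 0.23, SE 0.19, limma adjusted p = 0.581; 0.02 without WT1).

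Kcnab1 and Kcnip2 followed the libraries numbered 3. Kcnip2, a Shal partner, was at 22.8, 26.1 and 45.2 FPKM in KO and 34.7, 31.0 and 63.8 FPKM in WT, highest in KO3 and WT3 (log2 fold change -0.44, SE 0.33, limma adjusted p = 0.551). With the replicate block its unadjusted p was 0.00798 (limma adjusted p = 0.221), against an unadjusted 0.229 without it. Kcnab1 averaged 12.1 ± 3.01 FPKM in KO, with 15.5 FPKM in KO3, and 14.7 ± 7.20 FPKM in WT, with 22.9 FPKM in WT3. The 8 striatal neuron markers listed were high in the same libraries, with sums of 49.3, 40.7 and 286 FPKM in KO and 175, 88.8 and 653 FPKM in WT, and none was at 0. Their part in the levels of Kcnip2 and Kcnab1 was not tested.

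Kcnip4 was at 18.0, 20.8 and 16.1 FPKM in KO and 14.4, 16.1 and 13.7 FPKM in WT, above the WT range by a narrow margin in KO3 (log2 fold change 0.29, SE 0.12, limma adjusted p = 0.344). Kcnip3, which also acts as a transcriptional repressor, averaged 32.0 ± 10.8 FPKM in KO and 33.7 ± 4.90 FPKM in WT, and Kcnip1 averaged 3.95 ± 0.65 FPKM in KO and 3.51 ± 0.46 FPKM in WT. Kcne1l, listed in RefSeq with the synonym Kcne5, was the only Kcne gene above the filter. Its mean was 0.75 FPKM in KO and 1.86 FPKM in WT, so it passed the filter only through the WT libraries, where it was high. It was at 0.83, 0.82 and 0.59 FPKM in KO and 1.70, 1.5 and 2.38 FPKM in WT, with no overlap (log2 fold change -0.70, SE 0.16, limma adjusted p = 0.302; -0.74 without WT1). Between 15 and 62 reads per library stood behind it, the fewest of the tested genes.

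**Figure D3:**
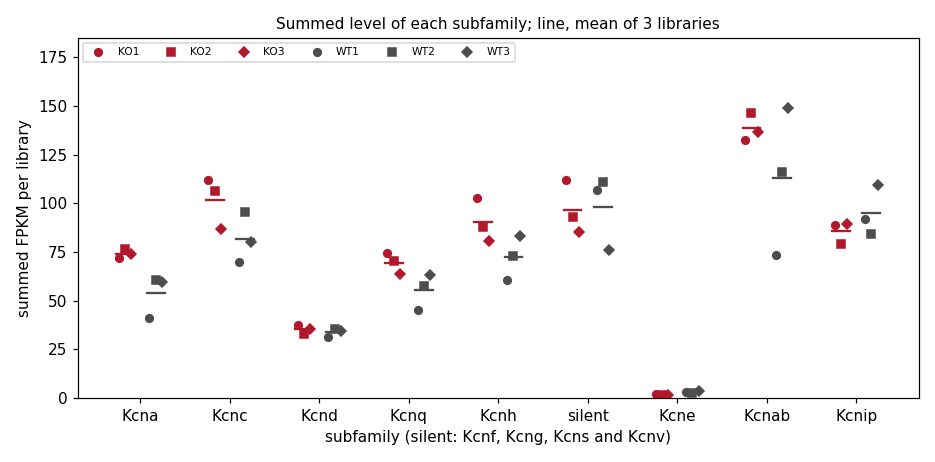
Summed FPKM of 9 subfamilies in each library, KO left of WT, with a line at the mean of 3 libraries. Kcna sums are above every WT library in all KO libraries (71.8 to 76.5 against 40.9 to 60.7 FPKM), and Kcnq sums by a narrow margin (63.8 to 74.2 against 45.2 to 63.2 FPKM), while Kcnd and silent subunit sums overlap.

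Summed over the channel-forming genes other than the silent ones, the level was 437, 412 and 371 FPKM in KO and 262, 349.8 and 348 FPKM in WT. Every KO library was above every WT library, by a ratio of means of 1.27, or 1.17 without WT1.

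**Figure D4:**
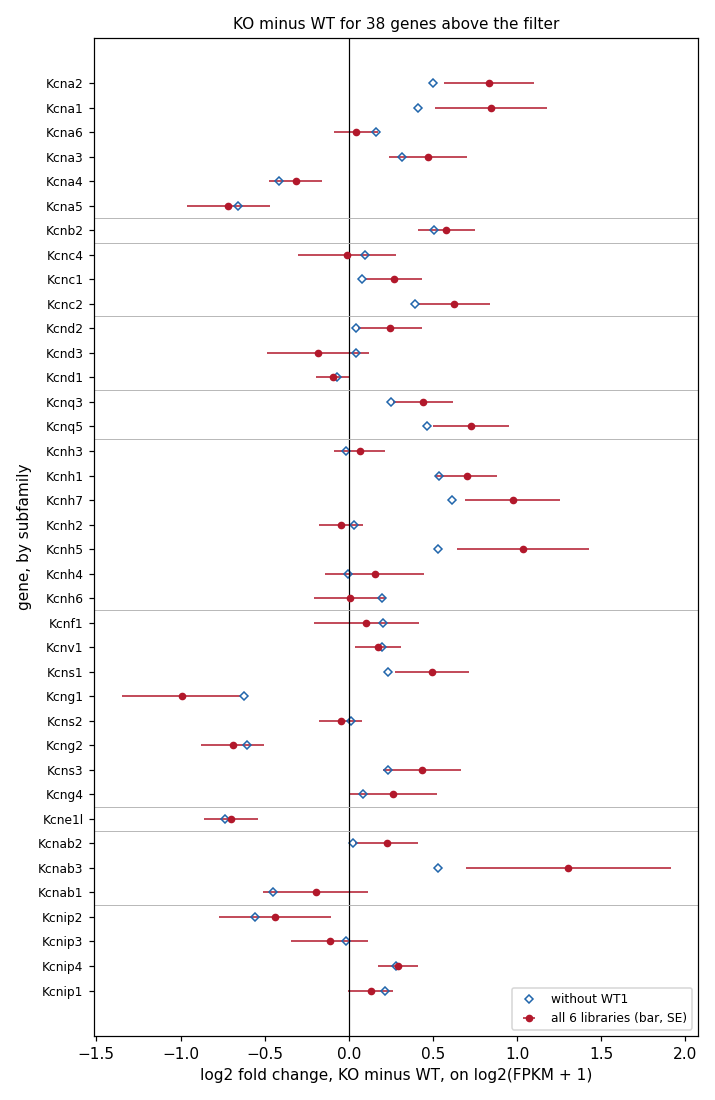
Log2 fold change, KO minus WT on log2(FPKM + 1), of 38 genes above the filter, grouped by subfamily. Filled points use all 6 libraries with a bar for the moderated SE, and open diamonds leave out WT1; for Kcna1, Kcna2, Kcnh5 and Kcnab3 the diamond lies well to the left of the point but above 0.

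Gene length moved with these values. Over protein-coding genes tested, the median log2 fold change was -0.17 at 1000 to 2000 bases, -0.06 at 2000 to 4000, 0.04 at 4000 to 8000 and 0.12 at 8000 to 16000. The voltage-gated potassium channel genes of the last 3 of these ranges had medians of 0.08 (12 genes), 0.17 (19 genes) and 0.51 (8 genes), each above that of all genes of like length. Below 2000 bases 2 genes had a median of -0.11, and the 1 gene of 16000 bases or more, at 0.06, was below the median of 0.22 for that length. The median length of the 42 genes was 4839 bases, and 4673 other protein-coding genes within their interquartile range (3637 to 7282.75 bases) had a median log2 fold change of 0.02, with 6.46% nominally higher. With a length trend removed from each library, 12 of the 42 were nominally higher, 10 of them among the original 12, where 5.73% of all genes tested were. Kcnq3 was among those lost, and the median of the 42 was 0.17.

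**Figure D5:**
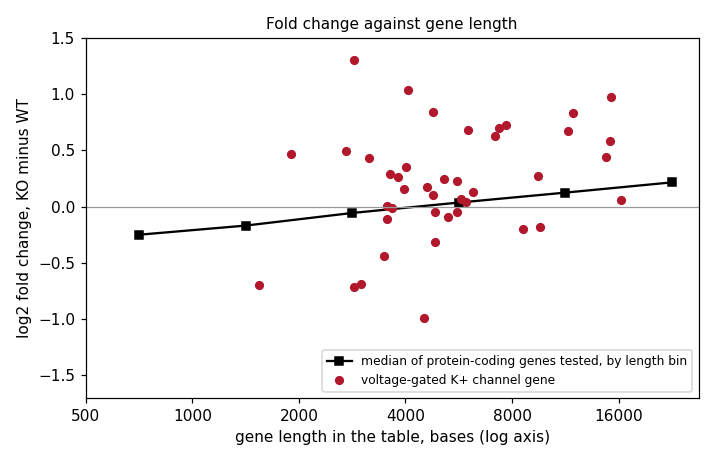
Log2 fold change, KO minus WT, against gene length in bases (log axis) for the 42 genes (circles) and the median of protein-coding genes tested in each length range (squares and line; the last square holds genes of 16000 bases or more). The line climbs with length, and most channel genes between 8000 and 16000 bases lie above it.

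Partners of these channels were taken from a list of 32 genes, all tested. None passed the test (0 of 32), 6 were nominally higher in KO and 0 nominally lower, where 7.05% and 7.25% of all genes tested were, and the median log2 fold change was 0.06. The 6 were Ank3, the anchor of Kcnq channels at the axon initial segment, the scaffold genes Dlg1 and Cask, Amigo1, a partner of Shab channels, Adam22, a receptor in the Kcna complex, and Cul3, a ubiquitin ligase subunit. Ank3 was at 12.2, 13.0 and 11.5 FPKM in KO and 5.68, 9.95 and 9.82 FPKM in WT (log2 fold change 0.52, SE 0.20, limma adjusted p = 0.327; 0.28 without WT1). The other 5 had log2 fold changes of 0.24 to 0.29. Without WT1, Dlg1, Amigo1 and Adam22 were no longer nominally higher. With the length trend removed only Cul3 of the 6 was, where 5.73% of all genes tested were, while Dlg4 and Dpp6 were nominally lower, where 5.94% were. Cntnap2, the relative of Cntnap4 that clusters Shaker channels beside the node of Ranvier, had a log2 fold change of 0.17, and Dpp6 and Dpp10, which bind Shal channels, had -0.25 and 0.18, all with an unadjusted p above 0.05 in the values as deposited.

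Other ion channel families are given beside these without a test between the families. Of 26 tested inward-rectifier, leak and ligand-gated potassium channel genes, 4 were nominally higher and 2 nominally lower, where 7.05% and 7.25% of all genes tested were, with a median log2 fold change of 0.19, or 0.05 without WT1. Of 34 tested voltage-gated sodium, calcium and HCN channel genes, 6 were nominally higher and 4 nominally lower, set against the same shares, with a median of 0.06, or 0.02 without WT1. The same median of the 42 voltage-gated potassium channel genes was 0.20, or 0.13 without WT1.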

How the data were processed

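Per the file headers, the deposited table gives FPKM per Ensembl gene for 6 libraries, with gene name, position, length and biotype; the authors scaled it by library. Per the submitters' processing notes, the builds were GRCm38 and mm10. The read aligner, counting tool, annotation and strand setting were steps not given in the sources used here. Multiplied by gene length, 100.0% of values were whole multiples of 1 step per library (tolerance 0.01 reads), which gave the reads.

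Genes with a mean of at least 1 FPKM were tested as log2(FPKM + 1) with limma 3.58.1 in R 4.3.3 (moderated variances following a trend with level, two-sided test, Benjamini-Hochberg over 13087 genes, threshold 0.05). Fold changes on that scale understate low genes. "Nominally" means an unadjusted p under 0.05. The fit was tested on simulated data, where planted genes that dropped under the filter went untested and so could not be called. Every simulated gene had the same relative spread and no library stood apart as WT1 does, so that test does not show how the fit performs on these libraries. An exact permutation test of 1 gene could reach no p under 0.1 with groups of 3.

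The members and lists were chosen with earlier results of these data known. Of the tested members, 38 are named and the other 4 are counted but not reported here by name; values per library are given for those with an unadjusted p under 0.05 or no overlap between the groups and for the highest of most subfamilies, and beyond that rule for Kcnc1 and Kcnab3. Of the partner list, those with an unadjusted p under 0.05 are named by rule; Cntnap2, Dpp6, Dpp10 and Dlg4, and the amygdala and interneuron markers given singly, were added after their values were seen. Same-numbered libraries deviated together to a degree (correlations of deviations from group means 0.17, 0.15 and 0.33 across genes, all over 0.1). KO1 correlated more with WT2 (0.28) than with WT1. No label used here pairs the libraries, and these correlations come from the same values. The main fit had no block, and a fit with the replicate number as a block was only an alternative. Reads of overlapping genes cannot be told apart without strand. No sequence was printed.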

Additional observations from a re-analysis of the deposited data

How the results depend on the processing

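In 18 alternatives, 0 voltage-gated potassium channel genes passed the adjusted threshold (smallest adjusted p = 0.0966, Kcnh1 with sample weights). The median log2 fold change of the tested genes stayed positive, at 0.11 to 0.33, the lowest with no filter and with WT1 left out and the length trend removed. Nominally higher genes were 12 with the replicate block absent and 13 with it, and nominally lower genes 4 and 5, where 7.86% and 9.92% of all genes tested were higher and lower with it, so the replicate block moved no count by over 1.5 times; it changed no adjusted call of a member. Across fits that left out 1 library, nominally higher genes were 4 to 16, where 2.89% to 8.85% of all genes tested were, and nominally lower 2 to 5, where 3.85% to 9.78% were. Those above the WT range were 14 to 17, where 14.4% to 19.7% were, and those below it 5 to 6, where 12.7% to 19.2% were; with fewer libraries these counts can only gain genes, apart from those moved by the filter. With both libraries numbered 3 left out, 22 lay above and 8 below the WT range, where 27.5% and 25.8% of all genes tested did. With a common FPKM sum 1 lay below.

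Over all genes, 1 passed as deposited, and 0 with no filter, a filter of 0.3 FPKM, quantile normalization, no variance trend, the replicate block, the length trend removed, or WT1 left out with that trend removed; leaving out 1 library gave 0 to 9, the most without WT3. Voom on the recovered reads called 1. At an unadjusted p under 0.05 all genes tested split into 923 higher and 949 lower, or 1224 and 580 with a common FPKM sum.

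Sign changes were counted for 23 members. They were named members with no overlap between the groups, a nominal call or the highest level of a subfamily, and Kcnab3. A member with no overlap cannot change sign when 1 library is left out, so the count does not describe the other members. Of the 23, 4 changed sign under some alternative, with log2 fold changes of -0.01 (Kcnc4) to 0.23 (Kcnab2) over the 6 libraries. Outside the 23, Kcnd3 (-0.18), Kcnh2 (-0.05), Kcnh4 (0.15) and Kcns2 (-0.05) changed sign without WT1, to 0.04, 0.03, -0.002 and 0.01. Kcnc4 was at 0.044 with a common FPKM sum, 0.0079 with the length trend removed, 0.11 with WT1 also left out, 0.097 without WT1, and -0.27 to 0.23 in fits leaving out 1 library (0.14 without WT2, 0.23 without KO3). Kcnh3 was at -0.052 with WT1 left out and the length trend removed, -0.018 without WT1 and -0.064 without KO1, with 0.17 the highest value leaving out 1 library. Kcnab2 was at -0.0054 with WT1 left out and the length trend removed. Kcnf1 was at -0.10 with sample weights, -0.21 without WT3 and -0.11 without KO1, with 0.32 the highest value leaving out 1 library. The causes were not tested. Voom on the recovered reads and WT1 left out with the length trend removed were chosen after seeing the data. The table holds FPKM, and voom was used on the recovered reads in place of edgeR and DESeq2, which were not run.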
